A study of Mus musculus with 62 samples.

Results

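The genes examined here are 10 that are commonly read as signs of neutrophils: the alarmins S100a8 and S100a9, the receptors Csf3r, Cxcr2 and Il1r2, the secreted proteins Retnlg and Mmp9, and the chemokines Cxcl1, Cxcl2 and Cxcl5. They were named by symbol, with no threshold on their values but with earlier results of these data known, and are 10 of the 47643 symbols in the deposited table. Levels are in TPM, in which transcripts are counted per length and each library sums to 1000000. White adipose tissue came from female mice 2 months old, injected with melanoma cells that cause cachexia (CAC), with melanoma cells that do not (NCAC), or with a mock injection (labelled Con, called mock here), and was taken 2, 4, 6 or 8 weeks later. The 62 libraries make 12 groups of 5, except for 7 in CAC at 8 weeks. The series record gives the strain as NCI Ath/nude, an athymic mouse, while each sample is tagged C57BL6/J, and this conflict was not settled. The treatment tag reads the same in all samples, so the arm was taken from each sample's description. The library protocol also speaks of a 3-week time after LLC cells, which no sample carries. The sources used here do not name the fat depot, the number of mice behind a library or a batch. The protocol calls the replicates biological, and the p-values of group differences set each difference against the spread between these libraries.

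Neutrophils are short-lived phagocytes made in the bone marrow under the growth factor G-CSF, which acts through the receptor encoded by Csf3r. They leave the marrow and enter tissue along chemokine gradients that are read by Cxcr2, whose ligands include the products of Cxcl1, Cxcl2 and Cxcl5. In adipose tissue they are a small population that is known to expand with inflammation. None of the 10 genes is made by neutrophils alone: Csf3r and the alarmins are also found in monocytes, Mmp9 in macrophages, Il1r2 in several myeloid cells, and the chemokines mainly in stromal, epithelial and endothelial cells and macrophages. In whole tissue, fewer cells of a type and less RNA per cell cannot be told apart.

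Stretches of 140 bases around the RefSeq start of 4 of the genes (build GRCm38.p6) are shown because they form neighbouring pairs, the alarmins on chromosome 3 and the chemokines on chromosome 5, that can be compared letter by letter. Of the 10 genes, 8 matched an entry of the RefSeq promoter table. Capitals mark a match to TATAAA in the alarmin pair. In the chemokine pair they mark GGGAATTTCCCTGG, the longest run of letters (14 bases) that both genes share in the 250 bases before their starts, which opens with the letters of an NF-kB motif, known as a control site of these chemokines. S100a8 lies at chr3:90668951-90669090 on the plus strand, S100a9 at chr3:90695702-90695841 on the minus strand, Cxcl1 at chr5:90891125-90891264 on the plus strand and Cxcl2 at chr5:90903779-90903918 on the plus strand.
S100a8: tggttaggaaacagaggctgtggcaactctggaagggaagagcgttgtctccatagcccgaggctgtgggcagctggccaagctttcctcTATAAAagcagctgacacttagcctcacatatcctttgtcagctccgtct
S100a9: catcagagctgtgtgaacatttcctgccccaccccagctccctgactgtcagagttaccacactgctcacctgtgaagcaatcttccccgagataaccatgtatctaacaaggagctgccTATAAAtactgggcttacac
Cxcl1: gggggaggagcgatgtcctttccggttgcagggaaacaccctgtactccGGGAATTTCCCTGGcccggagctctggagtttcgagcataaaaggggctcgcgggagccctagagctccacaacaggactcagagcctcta
Cxcl2: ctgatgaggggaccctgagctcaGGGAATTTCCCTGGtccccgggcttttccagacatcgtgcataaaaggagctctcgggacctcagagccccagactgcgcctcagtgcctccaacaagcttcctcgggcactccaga
Both strands were searched in windows from 250 bases before to 50 bases after each start. Position 0 is the start. The shared run lies at -71 to -58 in Cxcl1 and at -97 to -84 in Cxcl2, and these are the only 2 of the 32851 promoters in the table that hold it (0.00609%), the pair it was read from. TATAAA was found at -30 to -25 in S100a8 and at 0 to 5 in S100a9, and 13.6% of the promoters hold it. The looser C/EBP pattern TTNNGNAA was found in S100a8, S100a9, Retnlg and Cxcl2, and 40.7% of the promoters hold it. These matches describe letters in a window and were not tested against the expression values.

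The libraries carried the marks of fat: the summed level of 9 adipocyte markers lay between 31540 and 89550 TPM. Between 11783 and 14470 genes reached 1 TPM in a library, and mitochondrially encoded genes took 17.2% to 44.4% of a library's TPM. Read depth cannot be had from TPM, so the counting error of the values is not known. In 16 of the 62 libraries the summed uroplakins Upk1a, Upk1b, Upk2 and Upk3a, markers of bladder lining, exceeded 100 TPM. These were 3, 2, 3 and 3 CAC libraries at 2, 4, 6 and 8 weeks, 1 NCAC library at 2 and 1 at 4 weeks, and 2 mock libraries at 4 and 1 at 8 weeks. The tests over weeks 6 and 8 are therefore given with and without them for the 10 genes, except Cxcl2 and Cxcl5, and for the other genes named as called there. Without them 2 of 5 CAC libraries were left at 6 weeks and 4 of 7 at 8 weeks. Of the defining neutrophil markers, Ly6g was at 0 in 33 of 62 libraries and at most 1.51 TPM, so the tissue held little of this transcript in any group.

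Most of the 10 genes were expressed at a low level. Over the 62 libraries S100a9 averaged 11.3 TPM, Mmp9 5.28, S100a8 4.73, Retnlg 2.59, Csf3r 2.27, Cxcl1 0.993, Il1r2 0.860, Cxcr2 0.401, Cxcl2 0.101 and Cxcl5 0.0448 TPM. Changes were tested with limma on log2(TPM + 1), which understates the change of low genes, for genes that averaged 0.5 TPM or more in the 62 libraries. That filter passed 7 of the 10 genes (14577 of all symbols), and Cxcr2, Cxcl2 and Cxcl5 did not pass. Il1r2 passed only through its CAC libraries, as it averaged under 0.5 TPM over the mock and NCAC libraries. A gene is called at a Benjamini-Hochberg adjusted p under 0.05 over all genes tested, and the words rose and fell are kept for called genes. Group means are given with their SD.

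**Figure D1:**
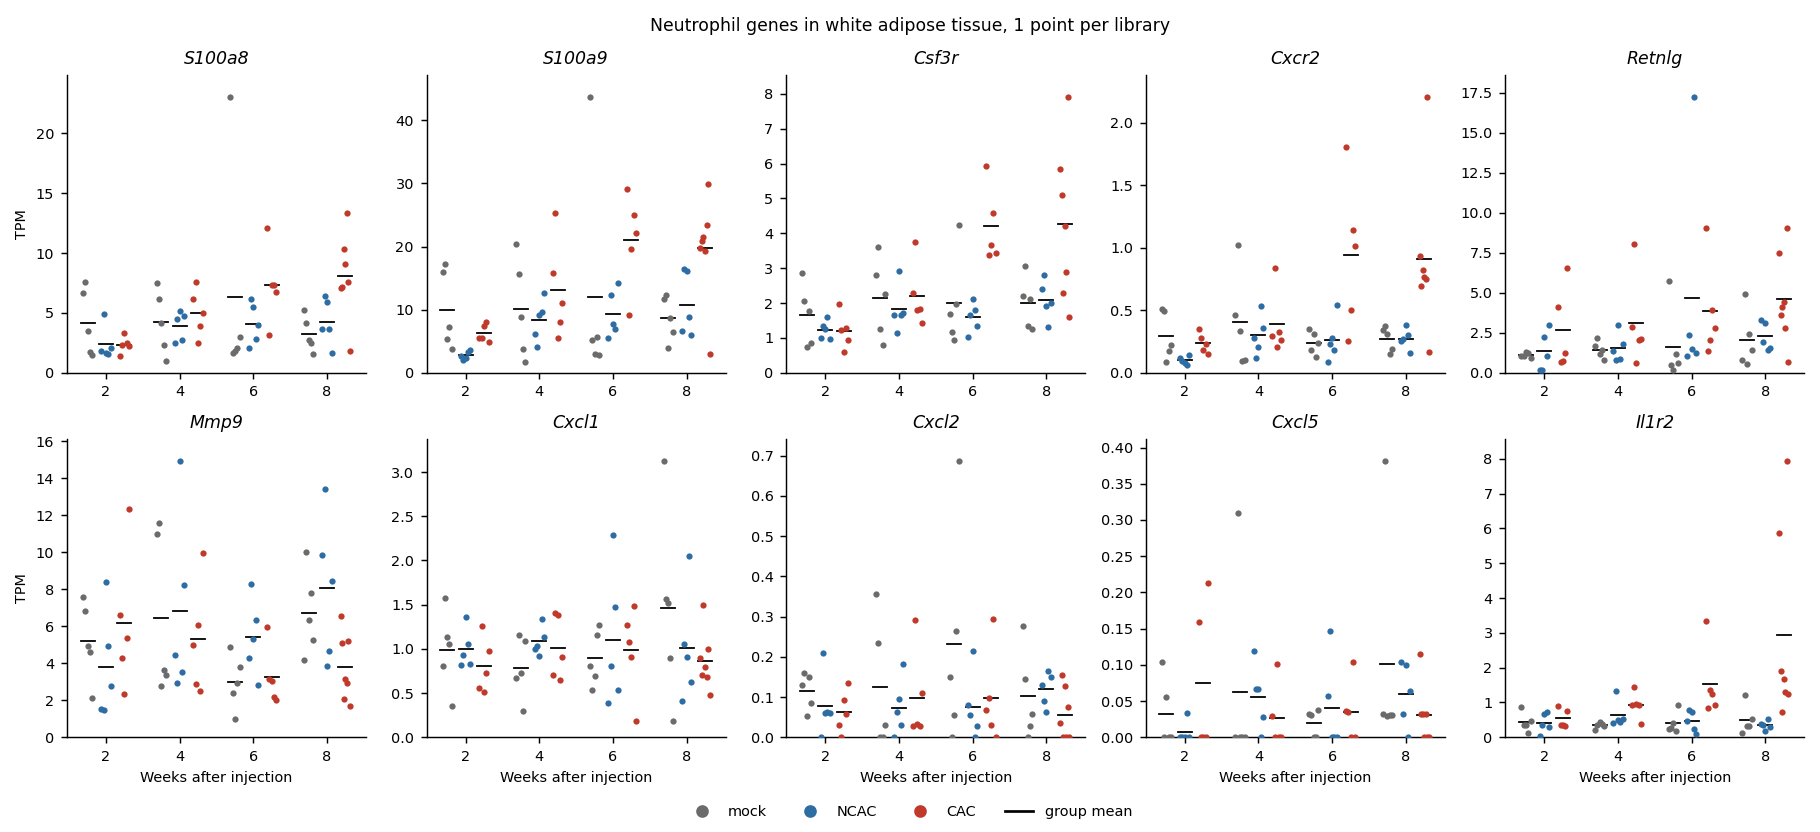
TPM (linear axis from 0, a different scale in each panel) of each of the 10 genes against weeks after injection, with 1 point per library coloured by arm and a bar at each group mean. At 6 and 8 weeks the CAC points of Csf3r reach 7.92 TPM and those of Il1r2 reach 7.93 TPM, whereas Cxcl1 stays between 0.182 and 3.12 TPM in all groups.

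Over weeks 6 and 8 together, the receptors Csf3r and Il1r2 rose in CAC tissue against both mock and NCAC tissue, S100a9 rose against NCAC tissue, and Mmp9 fell against NCAC tissue. Csf3r and Il1r2 were the only called genes among the 7 tested in CAC against mock, where 10.4% of all genes tested were called. Against NCAC the same share was 14.8%, and 4 of the 7 were called. In each of the 2 comparisons 5 of the 7 genes had a change above 0, where 41.5% of all genes did so against mock and 57.4% against NCAC. The median change over the 7 genes was 0.89 on the log2 scale against mock and 0.71 against NCAC, beside -0.06 and 0.05 over all genes tested. Both comparisons use the same CAC libraries. These fits take the mean of the differences at 6 and at 8 weeks, from 12 CAC libraries against 10 of the other arm. Il1r2 entered the 7 tested genes through its CAC libraries, where it is high, so its part in these counts and medians is not independent of the filter. The genes were also chosen with earlier results of these data known, so their contrast with all genes is descriptive and not an independent test.

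**Figure D2:**
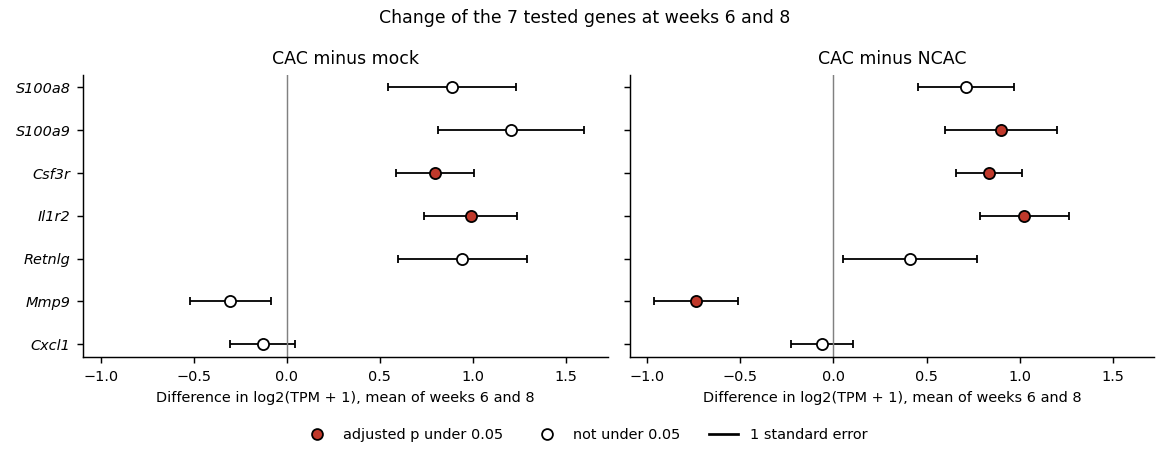
Difference in log2(TPM + 1) between CAC and mock tissue and between CAC and NCAC tissue, as the mean of weeks 6 and 8, for the 7 tested genes; bars are 1 limma standard error and filled points have an adjusted p under 0.05. Csf3r (0.80 and 0.84) and Il1r2 (0.99 and 1.03) are filled in both panels, S100a9 (0.90) and Mmp9 (-0.74) against NCAC alone.

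Csf3r encodes the receptor for G-CSF, which drives the production and release of neutrophils. It lies on chromosome 4 from 126024550 to 126044440 (GRCm38, plus strand). At 6 weeks its level in CAC tissue was 5.92, 3.38, 3.66, 4.59 and 3.43 TPM, in NCAC tissue 1.02, 1.66, 2.11, 1.81 and 1.34 TPM, and in mock tissue 1.68, 1.17, 0.947, 1.98 and 4.25 TPM. All 5 CAC libraries lay above all NCAC libraries, and 2 of them lay above the highest mock library. Csf3r rose in CAC against NCAC at 6 weeks by 1.00 (log2 units, SE 0.18, adjusted p = 0.0117 by limma), the only one of the 7 tested genes called there, where 5.78% of all genes tested were called. The groups of 6.88% of all genes tested were apart in this direction at that week. The median of all genes was shifted by 0.13 in the same comparison, and after median-ratio rescaling, which removes such a shift, the change of Csf3r was 0.89. Leaving out the 3 CAC libraries with uroplakins left 2 CAC libraries, with a change of 0.995 and an adjusted p of 0.148. Mitochondrially encoded genes took 25.9% to 31.7% of TPM in the CAC libraries of that week, 29.4% to 42.4% in NCAC, where 4 of 5 libraries lay above every CAC library, and 17.2% to 41.9% in mock tissue. With these genes removed and each library rescaled, the change of Csf3r against NCAC was 0.96 (adjusted p = 0.0145).

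At 8 weeks Csf3r in CAC tissue ran from 1.58 over a median of 4.22 to 7.92 TPM, in NCAC tissue it was 2.39, 2.81, 1.93, 1.32 and 2.00 TPM, and in mock tissue 2.20, 3.05, 1.35, 2.11 and 1.26 TPM. Of the 7 CAC libraries, 5 lay above all NCAC and 4 above all mock libraries, and the groups overlapped at the low end. The change at 8 weeks was 0.73 against mock (SE 0.30, adjusted p = 0.178) and 0.67 against NCAC (SE 0.29, adjusted p = 0.263), and 0.74 and 0.76 without the uroplakin-positive libraries (adjusted p = 0.408 and 0.501). Over weeks 6 and 8 Csf3r rose by 0.80 against mock (SE 0.21, adjusted p = 0.018) and by 0.84 against NCAC (SE 0.18, adjusted p = 0.00416). Without the uroplakin-positive libraries the changes were 0.80 (adjusted p = 0.185) and 0.88 (adjusted p = 0.0203). At 2 and 4 weeks the CAC means were 1.20 ± 0.501 and 2.21 ± 0.909 TPM (n = 5 each), beside 1.65 ± 0.879 and 2.14 ± 1.15 TPM in mock tissue. In the order of the 12 group means, CAC at 8 and at 6 weeks came first and CAC at 2 weeks last, and each group's range overlapped that of the next in the order.

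Il1r2 encodes the decoy receptor for interleukin-1, which binds the cytokine without passing on a signal and is induced by glucocorticoids. It lies on chromosome 1 from 40074079 to 40125231 (GRCm38, plus strand) and overlaps the minus-strand gene Gm16894, listed at 0 to 1.40 TPM. The kit marks strand, but no source used here gives the counting setting, so reads of the overlap may not be separated. At 6 weeks Il1r2 in CAC tissue was 3.34, 0.842, 1.35, 1.25 and 0.931 TPM, in NCAC tissue 0.476, 0.773, 0.729, 0.237 and 0.0895 TPM, and in mock tissue 0.249, 0.265, 0.404, 0.170 and 0.935 TPM. All 5 CAC libraries lay above all NCAC libraries, and 3 lay above all mock libraries. At that week 6.88% of all genes tested were apart from NCAC in this direction. At 8 weeks the CAC libraries were 5.86, 1.91, 0.717, 1.68, 1.29, 7.93 and 1.25 TPM, the NCAC libraries 0.371, 0.342, 0.194, 0.513 and 0.281 TPM, and the mock libraries 0.127, 1.23, 0.322, 0.330 and 0.515 TPM. All 7 CAC libraries lay above all NCAC libraries, a separation in this direction that 0.549% of all genes tested showed, and 6 of 7 lay above all mock libraries. The CAC mean was 2.95 ± 2.79 TPM (n = 7), beside 0.340 ± 0.118 TPM in NCAC and 0.504 ± 0.427 TPM in mock tissue (n = 5 each). Replicates 1 and 6 stood highest in CAC tissue, and the other 5 lay between 0.717 and 1.91 TPM. These replicates also had the lowest adipocyte sums of the group (53960 and 57080 TPM, the others up to 89550 TPM), and replicate 6 had its highest uroplakin sum (177 TPM). The highest CAC library at 6 weeks, replicate 1, likewise had the lowest adipocyte sum (63870 TPM, the others 74260 to 89250 TPM) and the highest uroplakin sum (485 TPM) of its group. The part of these differences in the Il1r2 values was not tested.

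At 8 weeks alone Il1r2 was not called, with a change of 1.30 against NCAC (SE 0.37, adjusted p = 0.108) and 1.17 against mock (SE 0.39, adjusted p = 0.111), and without the uroplakin-positive libraries 1.21 (adjusted p = 0.459) and 1.05 (adjusted p = 0.41). Over weeks 6 and 8 Il1r2 rose by 0.99 against mock (SE 0.25, adjusted p = 0.0146) and by 1.03 against NCAC (SE 0.24, adjusted p = 0.00756). With a pseudocount of 0.1 TPM in place of 1 TPM these changes were 1.91 (adjusted p = 0.00433) and 1.98 (adjusted p = 0.00175). Il1r2 kept the call without each of the 22 libraries in turn, in both comparisons. It was tested at all only because its CAC libraries lifted its mean over the filter, so the calls are not independent of that filter. With the uroplakin-positive libraries left out, the changes were 0.89 (adjusted p = 0.178) and 0.95 (adjusted p = 0.0591). In the earlier weeks the CAC means were 0.542 ± 0.271 TPM at 2 and 0.925 ± 0.379 TPM at 4 weeks (n = 5 each), and 4 of 5 CAC libraries at 4 weeks lay above all mock libraries. The CAC groups at 8, 6 and 4 weeks held the 3 highest means, each overlapping the next, and mock and NCAC means at all weeks lay between 0.340 and 0.632 TPM.

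Cxcr2 encodes the chemokine receptor that draws neutrophils to CXC ligands, and lies on chromosome 1 from 74153989 to 74161246 (GRCm38, plus strand). At 6 weeks it was 1.80, 0.253, 0.504, 1.14 and 1.01 TPM in CAC tissue, 0.0877, 0.233, 0.278, 0.181 and 0.542 TPM in NCAC tissue, and 0.350, 0.184, 0.307, 0.128 and 0.234 TPM in mock tissue. At 8 weeks the CAC libraries were 0.935, 0.697, 0.820, 0.764, 0.751, 2.21 and 0.167 TPM, while the 10 NCAC and mock libraries lay between 0.150 and 0.384 TPM. In 6 of the 7 CAC libraries at 8 weeks, and in 4 of 5 against mock and 3 of 5 against NCAC at 6 weeks, the level was above all libraries of the other group. Its mean of 0.401 TPM was under the filter, so it is in none of the counts above. In a fit with no filter on low values the change over weeks 6 and 8 was 0.56 against mock (SE 0.14, adjusted p = 0.0222) and 0.55 against NCAC (SE 0.14, adjusted p = 0.0201). With the uroplakin-positive libraries also left out, an alternative chosen after seeing the data, these were 0.53 (adjusted p = 0.0507) and 0.51 (adjusted p = 0.0273). At 2 weeks all 5 CAC libraries (0.152 to 0.351 TPM) lay above all NCAC libraries (0.0615 to 0.139 TPM), while the CAC and mock ranges overlapped. Of all genes tested 0.226% were apart from NCAC in this direction, a share that does not cover genes under the filter such as Cxcr2. With depth unknown, levels this low have no stated precision.

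S100a8 and S100a9 encode the subunits of calprotectin, a calcium-binding alarmin stored in large amounts in neutrophil cytosol. The genes are neighbours on chromosome 3, S100a8 from 90668978 to 90670035 on the plus strand and S100a9 from 90692632 to 90695721 on the minus strand (GRCm38). At 6 weeks S100a9 was 29.1, 9.11, 19.6, 24.9 and 22.1 TPM in CAC tissue, 5.53, 12.3, 7.64, 6.93 and 14.3 TPM in NCAC tissue, and 43.8, 5.16, 2.96, 5.61 and 2.87 TPM in mock tissue. CAC replicate 2 lay within the NCAC range and the other 4 above it, and mock replicate 1 exceeded every library of the series. At 8 weeks the CAC libraries were 19.8, 20.9, 21.5, 19.3, 23.4, 30.0 and 2.93 TPM, the NCAC libraries 6.54, 16.5, 16.2, 8.75 and 5.93 TPM, and the mock libraries 11.8, 12.4, 3.96, 8.67 and 6.42 TPM. The first 6 CAC libraries lay above all libraries of the other arms, and replicate 7 lay below them all.

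S100a9 rose over weeks 6 and 8 against NCAC by 0.90 (SE 0.30, adjusted p = 0.0486), and against mock its change was 1.20 (SE 0.39, adjusted p = 0.0533). Both values sit at the threshold. The call against NCAC held in 5 of 22 fits that left out 1 library and was lost in the other 17, with adjusted p from 0.00284 to 0.0964. It was also lost in 6 of the 10 other settings, where the adjusted p ran from 0.0502 to 0.0724. Against mock the gene passed without mock replicate 1 at 6 weeks (1.52, adjusted p = 0.00541), without CAC replicate 7 at 8 weeks (1.39, adjusted p = 0.0142) and without CAC replicate 2 at 6 weeks (1.33, adjusted p = 0.0398). It also passed against mock in 4 of the 10 other settings and not in the other 6, with adjusted p from 0.0129 to 0.327. Without the uroplakin-positive libraries the change against NCAC was 1.10 (adjusted p = 0.0301) and against mock 1.30 (adjusted p = 0.231).

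S100a8 followed the same libraries at a lower level. At 6 weeks it was 12.1, 3.15, 7.36, 7.33 and 6.74 TPM in CAC tissue, 2.08, 6.14, 5.49, 2.82 and 4.02 TPM in NCAC tissue, and 23.1, 1.62, 1.83, 2.06 and 2.98 TPM in mock tissue. At 8 weeks the CAC libraries were 7.08, 7.17, 10.4, 9.06, 13.4, 7.59 and 1.80 TPM, and the 10 NCAC and mock libraries lay between 1.58 and 6.41 TPM. Again mock replicate 1 at 6 weeks was the highest library of the series and CAC replicate 7 at 8 weeks fell within the other arms. S100a8 was not called over weeks 6 and 8, with a change of 0.89 against mock (SE 0.34, adjusted p = 0.102) and 0.71 against NCAC (SE 0.26, adjusted p = 0.0666). Without mock replicate 1 at 6 weeks the change against mock was 1.19 (adjusted p = 0.00788). Without CAC replicate 2 at 6 weeks, CAC replicate 7 at 8 weeks or NCAC replicate 3 at 8 weeks the change against NCAC was 0.83, 0.84 and 0.77, with adjusted p of 0.0359, 0.0132 and 0.0452. With the uroplakin-positive libraries left out, the changes were 1.01 against mock (adjusted p = 0.345) and 0.85 against NCAC (adjusted p = 0.0906).

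At 2 weeks S100a9 was 5.46, 5.47, 7.36, 8.04 and 4.81 TPM in CAC tissue, 2.62, 2.03, 2.26, 3.35 and 3.60 TPM in NCAC tissue, and 15.9, 17.2, 5.42, 7.22 and 3.74 TPM in mock tissue. The NCAC libraries lay below all libraries of the other arms, and no test called the gene at that week. The share of all genes tested that were apart in the same direction was 0.226% for CAC above NCAC and 0.0961% for NCAC below mock. The TPM of S100a9 was a median of 2.38 times that of S100a8 in the same library (range 0.413 to 4.25 over 62 libraries), and S100a9 was the higher in 59 libraries.

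Mmp9 encodes gelatinase B, a matrix protease kept in neutrophil granules and also made by macrophages, and lies on chromosome 2 from 164940780 to 164955850 (GRCm38, plus strand). At 8 weeks it was 6.56, 5.08, 2.08, 3.13, 2.92, 5.19 and 1.66 TPM in CAC tissue, 9.84, 13.4, 3.84, 4.67 and 8.46 TPM in NCAC tissue, and 4.17, 10.01, 6.33, 7.79 and 5.27 TPM in mock tissue. At 6 weeks the libraries ran from 2.02 to 5.95 TPM in CAC, from 2.83 to 8.30 TPM in NCAC and from 0.997 to 4.86 TPM in mock tissue. At 8 weeks 4 of 7 CAC libraries lay below all NCAC and below all mock libraries, and the other 3 overlapped them. Mmp9 fell over weeks 6 and 8 against NCAC, with a change of -0.74 (SE 0.23, adjusted p = 0.0313), while its change against mock was -0.30 (SE 0.22, adjusted p = 0.409). The call was lost without each of 7 single libraries, CAC replicates 4 and 5 and NCAC replicates 2 and 4 at 6 weeks and NCAC replicates 1, 2 and 5 at 8 weeks, with changes from -0.72 to -0.64 and adjusted p from 0.0503 to 0.0709. Without the uroplakin-positive libraries the change was -0.77 (adjusted p = 0.182). Its highest group mean was 8.05 ± 3.92 TPM in NCAC at 8 weeks and its lowest 2.99 ± 1.45 TPM in mock at 6 weeks (n = 5 each), so mock tissue itself spanned much of the range.

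Retnlg encodes resistin-like gamma, a secreted protein of neutrophils and myeloid precursors, and lies on chromosome 16 from 48872621 to 48874496 (GRCm38, plus strand). At 8 weeks it was 7.50, 3.59, 4.11, 4.45, 2.80, 9.02 and 0.652 TPM in CAC tissue, 3.28, 1.95, 3.14, 1.40 and 1.57 TPM in NCAC tissue, and 0.799, 4.91, 0.551, 2.45 and 1.42 TPM in mock tissue. At 6 weeks the CAC libraries were 9.04, 1.37, 2.02, 3.92 and 2.82 TPM, the NCAC libraries 1.06, 2.34, 1.49, 17.3 and 1.22 TPM, and the mock libraries 5.76, 0.462, 0.181, 1.18 and 0.587 TPM. The arms overlapped at both weeks, and the NCAC mean at 6 weeks came from replicate 4. That library also held 486 TPM of Chil3 and 2196 TPM of the paralog Retnla, beside at most 1.87 and 1415 TPM in the other 4 NCAC libraries of that week (both genes looked up after its Retnlg value was seen). Retnlg was not called over weeks 6 and 8, with changes of 0.94 against mock (SE 0.35, adjusted p = 0.0846) and 0.41 against NCAC (SE 0.36, adjusted p = 0.465). The change of Retnlg against mock was 1.47 with a pseudocount of 0.1 TPM (adjusted p = 0.0671). It passed against mock without mock replicate 1 at 6 weeks (1.15, adjusted p = 0.0285) and without CAC replicate 7 at 8 weeks (1.07, adjusted p = 0.042). With the uroplakin-positive libraries left out, the changes were 0.89 (adjusted p = 0.343) and 0.46 (adjusted p = 0.594).

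Of the 3 chemokines, which act on Cxcr2, Cxcl1 alone passed the filter, and it was not called in any comparison. Cxcl1, on chromosome 5 from 90891241 to 90893115 (GRCm38, plus strand), had group means from 0.787 to 1.46 TPM. At 8 weeks Cxcl1 was 0.897, 0.700, 1.50, 0.792, 0.677, 0.997 and 0.475 TPM in CAC tissue, 0.405, 1.06, 0.904, 2.05 and 0.625 TPM in NCAC tissue, and 3.12, 1.56, 1.52, 0.902 and 0.182 TPM in mock tissue. Every CAC library lay inside the range of both other arms. Its change over weeks 6 and 8 was -0.13 against mock (SE 0.17, adjusted p = 0.69) and -0.06 against NCAC (SE 0.17, adjusted p = 0.836). Without the uroplakin-positive libraries these were 0.02 and 0.07. Cxcl2, from 90903871 to 90905938 on the plus strand of chromosome 5, was at 0 in 12 of 62 libraries and at most 0.686 TPM. Cxcl5, from 90759360 to 90761624 on the plus strand of chromosome 5, was at 0 in 29 of 62 libraries and at most 0.381 TPM. Both lay under the filter, and their group means ran from 0.0558 to 0.231 TPM and from 0.00671 to 0.101 TPM.

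In the comparisons at single weeks 1 of the 7 tested genes was called once, Csf3r in CAC against NCAC at 6 weeks, where 4 of 7 and 26.2% of all genes had an unadjusted p under 0.05. CAC against mock called 0 of 7 at each week, where 0.00686%, 0.00686%, 0.357% and 3.07% of all genes tested were called at 2, 4, 6 and 8 weeks. At an unadjusted limma p under 0.05 it had 0, 1, 3 and 5 of the 7, beside 3.45%, 2.78%, 9.45% and 20.6% of all genes. The 5 genes at 8 weeks were S100a8, S100a9, Csf3r and Il1r2, all with positive changes, and Mmp9, with a negative one. CAC against NCAC called 0 of 7 by limma at 2, 4 and 8 weeks, where 0%, 0% and 0.528% of all genes were called. There 1, 0 and 3 of the 7 had an unadjusted p under 0.05, beside 3.62%, 4.45% and 16.1% of all genes. NCAC against mock called 0 of 7 by limma and 0% of all genes at each week. At an unadjusted p under 0.05 it had S100a9 at 2 weeks and Mmp9 at 6 weeks, 1 of 7 in each and 0 at 4 and 8 weeks, beside 1.61%, 0.789%, 1.41% and 1.24% of all genes at 2, 4, 6 and 8 weeks.

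Whether the CAC effect itself differed between the first and the last week was tested as the difference of the effects at 8 and 2 weeks. None of the 7 genes was called, where 0.0549% of all genes were, and 4 had an unadjusted limma p under 0.05, beside 9.34% of all genes. For S100a8 the CAC effect was -0.47 at 2 weeks and 1.03 at 8 weeks, a difference of 1.50 (SE 0.54, adjusted p = 0.461). For Csf3r the effects were -0.23 and 0.73, a difference of 0.96 (SE 0.41, adjusted p = 0.519). The differences for S100a9 and Il1r2 were 1.41 and 1.07, each with an adjusted p of 0.519.

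The genes also varied between libraries of the same group. Deviations of log2(TPM + 1) from the 12 group means were correlated for the 45 pairs of the 10 genes over 62 libraries, with a permutation test within groups (100000 draws) and adjustment over the 45 pairs. Both values of a pair come from 1 library and share its scaling. Pearson's r was above 0 in all 45 pairs, and 23 had an adjusted p under 0.05. The share of such pairs among all genes was not computed, so these counts cannot be read as particular to the 10 genes. S100a8 and S100a9 varied most closely, with r = 0.84, Spearman's rho = 0.79 and a permutation p of 1e-05 for both, the smallest that the draws can give (adjusted p = 0.000113). Without the 2 libraries farthest from the median of S100a8 r was 0.77, and within the CAC, NCAC and mock arms it was 0.90, 0.46 and 0.92.

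Csf3r and Il1r2, the receptors called in both late comparisons, had r = 0.55 and rho = 0.34, with permutation p of 0.0001 and 0.0142 (adjusted p = 0.0006 for r). Without the 2 libraries farthest from the median r was 0.50. Within the arms r was 0.82 in CAC, -0.01 in NCAC and 0.36 in mock tissue. Csf3r and Cxcr2 had r = 0.59 and rho = 0.45 (permutation p = 1e-05 and 0.00155, adjusted p = 0.000113 for r), 0.57 without the 2 farthest libraries, and 0.77, -0.02 and 0.55 in the CAC, NCAC and mock arms. S100a8 and Il1r2 had r = 0.09 and rho = 0.05 (permutation p = 0.545 and 0.697, adjusted p = 0.557 for r), and 0.07 without the 2 farthest libraries. Differences between arms in these correlations were not tested.

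**Figure D3:**
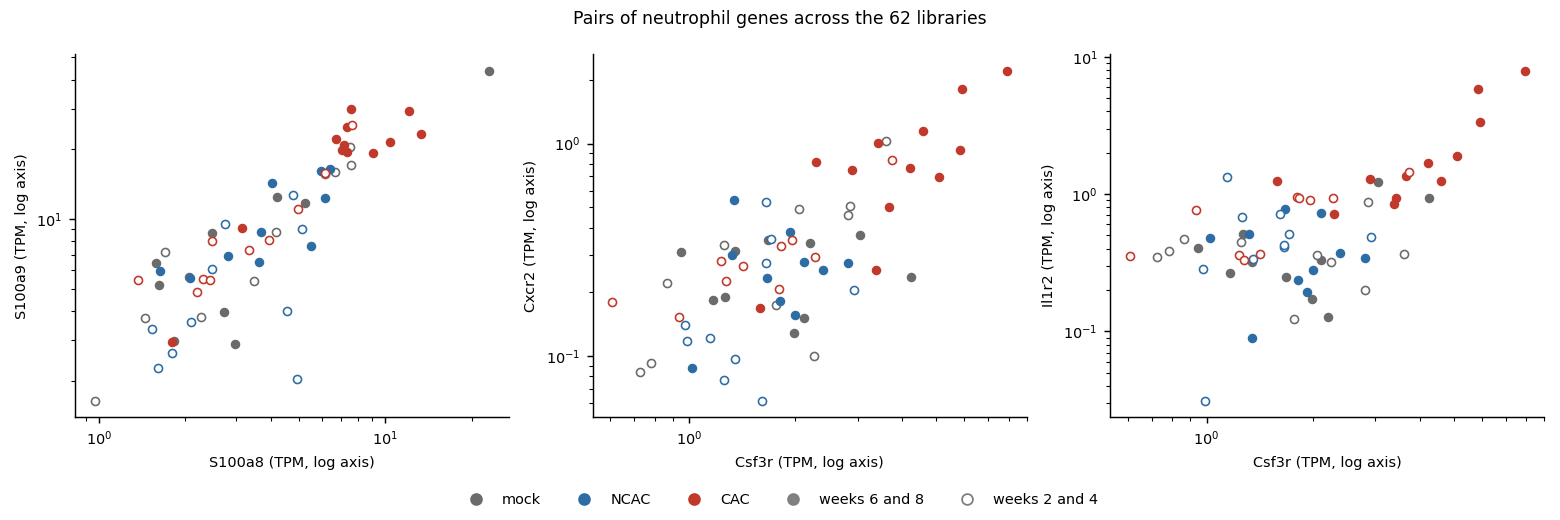
TPM of S100a9 against S100a8, Cxcr2 against Csf3r and Il1r2 against Csf3r (log axes), 1 point per library, coloured by arm, filled at 6 and 8 weeks and open at 2 and 4 weeks. The alarmins form 1 band, with mock replicate 1 at 6 weeks (23.1 and 43.8 TPM) at its upper end, and the highest Il1r2 values belong to CAC libraries with high Csf3r.

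Among the 13369 genes that averaged 1 TPM or more, those ranked most like Csf3r over the 62 libraries were Selp (Spearman's rho 0.81), Cd38 (0.79), Pirb (0.79), Map3k8 (0.78) and Csf2rb2 (0.78). Selp encodes P-selectin of endothelium and platelets, and Csf2rb2 a receptor subunit for interleukin-3. For S100a8 the nearest gene was S100a9 (0.87), followed outside the 10 genes by Clpx (0.64), Ccdc69 (0.58), Cd38 (0.58), Slc2a9 (0.58) and Cecr2 (0.57). For Cxcl1 they were Bre (0.56), Wwc2 (0.55), Il10rb (0.54), Blvra (0.53) and Flot1 (0.53). These ranks include the differences between groups and carry no test.

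Other genes of neutrophil biology were read from 4 lists, also chosen with earlier results of these data known. Their counts stand beside 10.4% of all genes tested that were called against mock and 14.8% against NCAC. Of 16 granule and maturation genes 7 were tested, and over weeks 6 and 8 4 of them rose against mock and 3 against NCAC, with 0 that fell in either. The median change of the 7 was 0.85 against mock and 0.50 against NCAC. Prtn3, a serine protease of primary granules, averaged 26.9 ± 4.80 TPM (n = 5) at 6 and 36.3 ± 15.0 TPM (n = 7) at 8 weeks in CAC tissue, and 6.23 ± 5.67 and 8.13 ± 5.07 TPM (n = 5 each) in mock tissue. Prtn3 rose by 2.22 against mock (SE 0.36, adjusted p = 0.000698) and by 2.08 against NCAC (SE 0.30, adjusted p = 0.000222). Chil3, a chitinase-like protein of myeloid cells, rose by 1.84 against mock (SE 0.31, adjusted p = 0.000975), and its change against NCAC was 1.05 (SE 0.76, adjusted p = 0.366), with NCAC replicate 4 at 6 weeks included. Stfa2l1, a stefin, rose by 0.89 against NCAC (SE 0.23, adjusted p = 0.0146), and by 2.01 with a pseudocount of 0.1 TPM (adjusted p = 0.0194). Other genes of this list were low: the highest level in any of the 62 libraries was 8.01 TPM for Ngp and 4.54 TPM for Camp. Ctsg reached 2.12, Mpo 1.93, Mmp8 1.76 and Cd177 0.627 TPM, with Camp at 0 in 22 and Ctsg at 0 in 28 libraries. These genes were picked from the list, and not all of its members are given here. Ltf, the gene of lactoferrin in granules and secretory epithelium, had a median of 0.0627 TPM and reached 389.7 TPM in 1 library, with changes of -0.86 against mock (adjusted p = 0.575) and -0.58 against NCAC (adjusted p = 0.698).

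Of 17 genes of activation and adhesion 16 are in the table and 14 were tested, of which 1 rose against mock and 3 against NCAC, and 0 fell, beside the 10.4% and 14.8% of all genes called. Their median change was -0.03 against mock and 0.04 against NCAC, close to that of all genes. Fpr1, a receptor for bacterial formyl peptides, averaged 1.54 ± 0.901 TPM (n = 7) in CAC and 0.417 ± 0.336 TPM (n = 5) in mock tissue at 8 weeks. Fpr1 rose by 0.67 against mock (SE 0.17, adjusted p = 0.0152) and by 0.71 against NCAC (SE 0.15, adjusted p = 0.00338), and its relative Fpr2 rose by 0.62 against NCAC (SE 0.17, adjusted p = 0.0175). With a pseudocount of 0.1 TPM the changes of Fpr1 were 1.545 against mock and 1.539 against NCAC, and that of Fpr2 was 1.10, all 3 still called. Fpr1, Fpr2 and Stfa2l1 averaged under 1 TPM over the 62 libraries. Whether they passed the filter at 0.5 TPM only through their CAC libraries was not examined. Their calls may therefore not be independent of that filter.

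Of 19 recruiting ligands, adhesion molecules and growth factors 12 were tested, of which 2 rose against mock and 5 against NCAC, and 0 fell, with a median change of 0.11 and 0.32. Selp rose by 1.09 against mock (SE 0.23, adjusted p = 0.00573) and by 1.14 against NCAC (SE 0.18, adjusted p = 0.000351). At 6 weeks it averaged 15.5 ± 5.01 TPM in CAC, 5.55 ± 2.14 TPM in NCAC and 6.88 ± 3.94 TPM in mock tissue (n = 5 each). Ackr1, the venular chemokine receptor that presents ligands to blood cells, rose by 0.95 against mock (SE 0.21, adjusted p = 0.00723) and by 1.10 against NCAC (SE 0.18, adjusted p = 0.00058). Csf3, the gene of G-CSF itself, was at 0 in 40 of 62 libraries and at most 7.30 TPM, and Il17a was at 0 in all 62.

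Of 9 neutrophil products that other tissue cells also make, all were tested, 4 rose and 1 fell in both comparisons, with a median change of 1.25 against mock and 0.66 against NCAC. Hp, which encodes haptoglobin and is made by adipocytes, rose by 4.13 against mock (SE 0.48, adjusted p = 2.51e-05) and by 3.90 against NCAC (SE 0.45, adjusted p = 1.67e-05). Wfdc21 rose by 3.36 against mock (SE 0.29, adjusted p = 4.01e-07), and Lcn2, the iron-sequestering lipocalin of granules and fat, rose by 3.63 against NCAC (SE 0.66, adjusted p = 0.00127). S100a11, an S100 protein of many cell types, fell in both, by 0.88 against mock and 0.91 against NCAC on the log2 scale (adjusted p = 0.0173 and 0.0233).

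**Figure D4:**
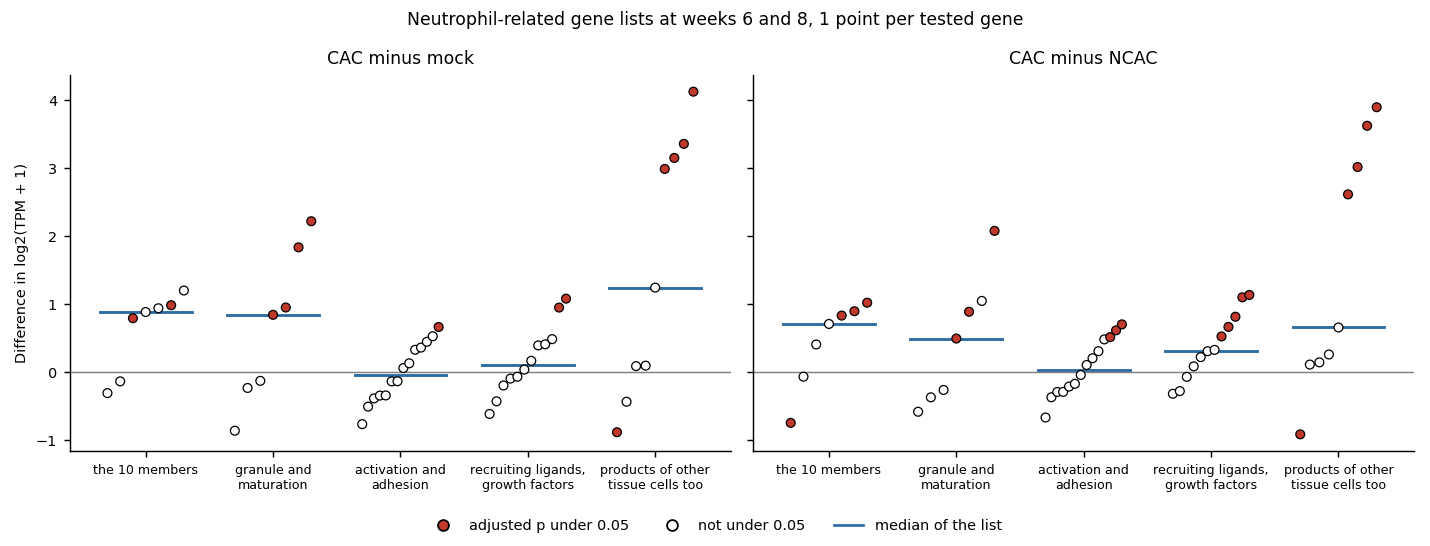
Difference in log2(TPM + 1) over weeks 6 and 8 for each tested gene of the 10 members and the 4 wider lists, in CAC against mock and CAC against NCAC tissue; filled points have an adjusted p under 0.05 and blue lines are list medians. The activation and adhesion list centres on 0 (medians -0.03 and 0.04), and the points above 2 belong to Prtn3 and to products that other tissue cells also make.

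Leaving out the uroplakin-positive libraries left 2 of 5 CAC libraries at 6 weeks and 4 of 7 at 8 weeks. A call lost there cannot be told apart from the loss of libraries. Without them the calls of Prtn3, Fpr1, Selp, Ackr1 and Chil3 against mock were lost, with changes of 1.83, 0.78, 1.11, 0.81 and 1.73 and adjusted p from 0.0668 to 0.198. Those of Prtn3, Stfa2l1, Fpr1, Selp and Ackr1 against NCAC held, with adjusted p from 0.00294 to 0.0336. The calls of Fpr2 and Lcn2 against NCAC were also lost, with changes of 0.69 and 3.64 (adjusted p = 0.0982 and 0.0594), as were those of S100a11 against mock and NCAC, with changes of -0.80 and -0.78 (adjusted p = 0.285 and 0.277), and those of Hp against mock and NCAC (adjusted p = 0.0169 and 0.00586) and Wfdc21 against mock (adjusted p = 0.00333) held. Markers of other myeloid cells were read beside these values, and beside the 10.4% and 14.8% of all genes tested that were called against mock and NCAC. Of 7 macrophage markers 0 were called in either comparison over weeks 6 and 8, and their summed level ran from 250 to 1509 TPM in CAC tissue at 8 weeks, from 344 to 1256 TPM in NCAC and from 393 to 1280 TPM in mock tissue. Of 4 monocyte markers Ly6c2 rose against both mock (0.54, SE 0.14, adjusted p = 0.0191) and NCAC (0.48, SE 0.16, adjusted p = 0.0433), and Plac8 rose against NCAC (1.12, SE 0.29, adjusted p = 0.0137). Ly6c2 without the uroplakin-positive libraries had changes of 0.40 (adjusted p = 0.41) and 0.39 (adjusted p = 0.371), and Plac8 of 1.17 against NCAC (adjusted p = 0.17). The summed monocyte level ran from 51.1 to 221 TPM in CAC, from 47.1 to 179 TPM in NCAC and from 47.6 to 357 TPM in mock tissue at 8 weeks. Of 7 fibroblast and progenitor markers 5 fell against mock and 4 against NCAC, beside 5.83% and 6.05% of all genes tested that fell. Of 4 urothelial markers 3 rose against NCAC and 0 against mock, beside 8.73% and 4.55% of all genes tested that rose. The part of these cell types in the values of the 10 genes was not tested.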

How the data were processed

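Expression was measured by RNA sequencing of white adipose tissue in 62 mouse libraries. The authors deposited 1 table of TPM values for 47643 gene symbols, with mm10 as the genome build per the submitters' processing notes. For aligner, counting and annotation, the entry is: not given in the sources used here. Each deposited library sums to 1000000 TPM, so the depth is unknown. TPM values were tested as log2(TPM + 1) with limma 3.58.1 in R 4.3.3 (trended, robust prior; two-sided; Benjamini-Hochberg over the 14577 genes that averaged 0.5 TPM or more, less at most 6 that did not vary within a single-week comparison). Each fit held only the groups compared, and the late comparison averaged the differences at 6 and 8 weeks. Levels and correlations were computed in Python 3.11.15 with numpy 2.4.6 and scipy 1.17.1. The fit was tested on simulated data.

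The 10 genes, the wider lists and the marker lists were chosen with earlier results of these data known. Beside the 10 genes, the text names from each wider list the called genes that rose most and fell most, up to 2 each way, and the 5 genes most like S100a8, Csf3r and Cxcl1 by Spearman's rho. Markers, and genes given as low or looked up for 1 library, fall outside this rule. Alternatives were a pseudocount of 0.1 TPM, no filter or a filter at 1 TPM, median-ratio rescaling, removal of the 37 mitochondrially encoded genes, 1 fit over all libraries, a replicate block, no trended or robust prior, removal of the 16 libraries with over 100 TPM of uroplakins (for weeks 6 and 8 also with no filter, added after seeing the data), and leaving out each library. Gene positions are from GENCODE M21 on GRCm38 and promoter sequences from RefSeq.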

Additional observations from a re-analysis of the deposited data

Results flagged for a closer look

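In 13 of 120 groups of libraries (10 genes in 12 groups) 1 library lay far from the rest of its group by Dixon's criterion, 11 as the highest and 2 as the lowest. Chance alone picks about 1 in 20 groups where groups are independent and normally spread. That does not hold here, as S100a8 and S100a9 flagged the same libraries and some Cxcl5 flags arose with the rest at 0. An excess of flags was therefore not tested. S100a8 was 23.1 TPM and S100a9 43.8 TPM in mock replicate 1 at 6 weeks, where the other 4 libraries held 1.62 to 2.98 and 2.87 to 5.61 TPM. The same library held 8.01 TPM of Ngp and 4.54 TPM of Camp, granule genes of maturing neutrophils, beside at most 0.16 and 0.172 TPM in the others. S100a8 was 1.8 TPM and S100a9 2.93 TPM in CAC replicate 7 at 8 weeks, where the other 6 held 7.08 to 13.4 and 19.3 to 30.0 TPM. That library also had the lowest macrophage sum (250 TPM, the others 292 to 1509) and the highest adipocyte sum (89550 TPM, the others 53960 to 79810) of its group.

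Retnlg was 17.3 TPM in NCAC replicate 4 at 6 weeks, beside 1.06 to 2.34 TPM. Il1r2 was 3.34 TPM in CAC replicate 1 at 6 weeks, beside 0.842 to 1.35 TPM, and that library had the highest uroplakin sum of its group (485 TPM). Il1r2 was 1.32 TPM in NCAC replicate 2 at 4 weeks, beside 0.409 to 0.515 TPM. S100a8 was 4.91 TPM in NCAC replicate 2 at 2 weeks, beside 1.53 to 2.1 TPM. Cxcr2 was 0.836 TPM in CAC replicate 2 at 4 weeks, beside 0.206 to 0.329 TPM. Cxcl5 stood apart in 4 groups at levels near 0: 0.0335 TPM in NCAC replicate 4 at 2 weeks and 0.31 TPM in mock replicate 2 at 4 weeks (the rest at 0), 0.115 TPM in CAC replicate 1 at 8 weeks and 0.381 TPM in mock replicate 2 at 8 weeks (the rest at most 0.0326 TPM).

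The change of S100a9 in CAC against mock was -0.413 at 2 weeks and 1.41 at 6 weeks on the log2 scale. The difference between these weeks was not tested.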

How the results depend on the processing

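Over weeks 6 and 8, 2 of the 7 tested genes were called in CAC against mock. The count was 1 with a filter at 1 TPM, which removes Il1r2, 4 with median-ratio rescaling, 4 with all 62 libraries in 1 fit, 0 without the uroplakin-positive libraries (also 0 with no filter as well, an alternative chosen after seeing the data), 3 with no filter on low values, 3 without mitochondrially encoded genes, 2 with a pseudocount of 0.1 TPM and with no trended or robust prior, and 2 to 5 when each library was left out, 5 without mock replicate 1 at 6 weeks and 4 without CAC replicate 7 at 8 weeks. Against NCAC the count of 4 became 2 with all libraries in 1 fit, 2 without the uroplakin-positive libraries (3 with no filter as well), 3 with a pseudocount of 0.1 TPM, a filter at 1 TPM, median-ratio rescaling, no mitochondrially encoded genes or no trended or robust prior, and 2 to 5 when each library was left out. It was 4 with no filter, where S100a9 lost its call and Cxcr2 entered. Csf3r against NCAC kept its call in all 10 other settings and all 22 fits without 1 library. At 6 weeks the count against mock was 0, then 1 with median-ratio rescaling and 0 to 1 without single libraries (without mock replicate 1, S100a9, and without mock replicate 5, Csf3r). The count against NCAC was 1, then 0 without the uroplakin-positive libraries and 1 to 2 without single libraries (2 without CAC replicate 2). At 8 weeks the count against mock was 0, then 2 with median-ratio rescaling, 2 without mitochondrially encoded genes, 1 with all libraries in 1 fit, and 0 to 2 without single libraries (2 without CAC replicate 7). Against NCAC it was 0, then 1 with all libraries in 1 fit.

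The labels do not say that replicate numbers pair the samples. In 0 of 12 comparisons did all 5 same-numbered pairs have a correlation of deviations over 0.1 (range -0.648 to 0.573). The pairs over 0.1 ran from 0 of 5 in NCAC against mock at 4 and 6 weeks to 4 of 5 in CAC against NCAC at 4 weeks. This check cannot tell pairing in part from none. With the replicate block the counts were 3 against mock and 4 against NCAC over weeks 6 and 8, 1 at 6 weeks against NCAC, and 0 in the other comparisons. Over weeks 6 and 8 against mock the calls of Il1r2 (0.90, adjusted p = 0.0769), Selp (1.10, adjusted p = 0.0573), Ackr1 (0.95, adjusted p = 0.063) and S100a11 (-0.79, adjusted p = 0.153) were lost with the block, and those of S100a9 (1.35, adjusted p = 0.0405) and Retnlg (1.00, adjusted p = 0.0498) were gained.

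Signs turned for changes that were small in the main fit and that no setting called. Mmp9 against mock at 6 weeks was -0.0607 without the uroplakin-positive libraries and -0.11 to 0.28 without single libraries. Cxcl1 against mock at 6 weeks was -0.0202 with a pseudocount of 0.1, -0.0129 without mitochondrially encoded genes and -0.0524 to 0.21 without single libraries. Without the uroplakin-positive libraries Cxcl1 was 0.13 and 0.00845 against NCAC at 6 and 8 weeks, 0.0184 and 0.0679 over both weeks against mock and NCAC, and 0.16 for the difference between weeks 8 and 2. Without single libraries Cxcl1 ran from -0.18 to 0.13 and from -0.19 to 0.0892 against NCAC at 6 and 8 weeks, from -0.13 to 0.0281 over both weeks, and from -0.42 to 0.0353 for the difference between weeks. Retnlg against NCAC at 6 weeks was 0.19 in the main fit (SE 0.61) and ran from -0.12 to 0.77 without single libraries. The cause was not tested. With depth unknown, levels of Cxcl2 and Cxcl5 near 0 have no stated precision.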
